A study of Mus musculus with 4 samples.

Results

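The genes described here are 6 secreted ligands and 4 proteins of the NF-κB pathway, 10 of the 13085 genes measured by RNA-seq in differentiated 3T3-L1 cells. They were chosen with earlier results of these data known. By symbol they are the CC chemokines Ccl2 and Ccl7, the CXC chemokines Cxcl1, Cxcl5 and Cxcl12, the growth factor Csf1, the inhibitors Nfkbia and Tnfaip3, and the subunits Nfkb1 and Relb. Each of the 10 had 1 row of RefSeq transcripts in every sample, and 9 of them had at least 1 FPKM (fragments mapped to a transcript, divided by its length and by the mapped total) in all 4 samples. Cxcl5, the other one, fell under 1 FPKM in a single line.

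Chemokines are small secreted proteins that attract white blood cells, and preadipocytes and fibroblasts release them when inflammatory signals reach the cell. NF-κB is a family of dimeric transcription factors that inhibitor proteins hold in the cytoplasm until the IKK kinases mark these inhibitors for destruction. Many chemokine genes are targets of NF-κB, and so are the genes of its own inhibitors, which form a negative feedback loop.

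3T3-L1 is a murine preadipocyte line that turns into fat-laden adipocytes under hormones. RNA came from 4 stable lines, with 1 sample of each: FLAG carried the empty tag vector, FLAG-CACUL1 overexpressed tagged CACUL1, sh-Luc carried a hairpin against luciferase, and sh-CACUL1 carried a hairpin against CACUL1. All 4 lines were grown to confluence and then received insulin (5 µg/mL), dexamethasone (1 µg/mL), IBMX (0.5 mM) and rosiglitazone (5 µM) in medium with 10% FBS, followed by insulin alone, until RNA was extracted on day 8. Dexamethasone is a glucocorticoid and was thus given to the controls as well. The FLAG lines were obtained from colonies that resisted G418, and the hairpin lines from colonies that resisted hygromycin B, so vector and drug cannot be told apart in a comparison of FLAG with sh-Luc. How many colonies made up a line, and the species of the CACUL1 insert, are not given in the sources used here. The study compared each CACUL1 line with the control of its own vector to follow the function of CACUL1 in adipogenesis. With 1 sample per line no difference had a replicate check, and no test was made.

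Cacul1 itself, the targeted gene, measured 9.61 FPKM in FLAG, 11.8 FPKM in FLAG-CACUL1, 10.2 FPKM in sh-Luc and 5.39 FPKM in sh-CACUL1. The log2 ratio of its FPKM + 1 was 0.27 for FLAG-CACUL1 relative to FLAG and -0.82 for sh-CACUL1 relative to sh-Luc. Both lay under 2-fold, so the names overexpression and knockdown rest on the constructs. The study checked them at the level of protein. Steps between low FPKM values gave an estimated 14300000 to 24100000 fragments per sample, with sh-Luc 1.68 times as deep as the shallowest sample. The median over all genes was lowest in sh-CACUL1, at 5.66 FPKM, and highest in sh-Luc, at 8.27 FPKM. All 8 adipocyte markers examined, Pparg, Cebpa, Fabp4, Adipoq, Plin1, Cidec, Lpl and Cd36, reached 1 FPKM in at least 1 sample.

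Promoter sequence from RefSeq on build GRCm38.p6 was held for 5 of the 10 genes, namely Cxcl1, Cxcl12, Csf1, Nfkbia and Tnfaip3, as windows from 250 bases before to 50 bases after a transcription start. The 10-base κB consensus, the DNA letters that NF-κB dimers are known to prefer, was searched on both strands and was found in 4 of these 5 genes, against 9.55% of 27025 genes with a match in any of their windows and 8.46% of all 32851 windows. The 10 genes were chosen as chemokine and NF-κB feedback genes, so the count among them was not independent of that choice. A match describes the letters and does not show that NF-κB was bound there in these cells. The windows that hold a match are printed 5′ to 3′ on the strand of the gene, with the matched bases in capitals, because they belong to ligands and to inhibitors whose RNA moved differently, as described further on. They lie at chr5:90890995-90891294 (plus strand) for Cxcl1, chr3:107760420-107760719 (minus strand) for Csf1, chr12:55492598-55492897 (minus strand) for Nfkbia and chr10:19015361-19015660 (minus strand) for Tnfaip3.
Cxcl1: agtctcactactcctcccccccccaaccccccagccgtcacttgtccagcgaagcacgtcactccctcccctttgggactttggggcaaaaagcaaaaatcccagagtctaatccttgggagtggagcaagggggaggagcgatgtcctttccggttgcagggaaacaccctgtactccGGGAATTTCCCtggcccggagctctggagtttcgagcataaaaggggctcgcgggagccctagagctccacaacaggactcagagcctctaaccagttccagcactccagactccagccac
Csf1: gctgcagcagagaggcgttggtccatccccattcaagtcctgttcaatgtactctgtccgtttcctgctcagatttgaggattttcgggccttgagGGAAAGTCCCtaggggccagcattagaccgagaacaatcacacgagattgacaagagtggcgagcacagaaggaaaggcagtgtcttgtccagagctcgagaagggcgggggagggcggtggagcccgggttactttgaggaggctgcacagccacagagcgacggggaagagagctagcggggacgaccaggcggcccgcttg
Nfkbia: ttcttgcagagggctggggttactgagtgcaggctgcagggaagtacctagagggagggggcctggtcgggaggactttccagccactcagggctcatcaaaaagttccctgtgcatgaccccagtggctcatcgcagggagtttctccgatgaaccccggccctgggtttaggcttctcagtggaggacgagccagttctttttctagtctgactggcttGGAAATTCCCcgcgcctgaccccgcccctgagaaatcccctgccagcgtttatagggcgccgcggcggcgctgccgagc
Tnfaip3: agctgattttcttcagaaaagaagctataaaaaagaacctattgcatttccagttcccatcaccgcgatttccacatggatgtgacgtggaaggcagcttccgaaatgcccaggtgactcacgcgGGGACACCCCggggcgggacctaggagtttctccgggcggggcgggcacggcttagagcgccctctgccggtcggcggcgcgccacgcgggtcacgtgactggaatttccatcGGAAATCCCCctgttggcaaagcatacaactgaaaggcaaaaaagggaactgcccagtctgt

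In Cxcl1 a pair of overlapping matches on opposite strands formed 1 stretch, which runs from position -71 to -61 as counted from the start. The match of Csf1 lies further out, from -154 to -145, and that of Nfkbia lies close to the start, from -29 to -20. Tnfaip3 holds 2 stretches, one from -125 to -116 and one from -12 to -3. A further Tnfaip3 window, at an internal start, holds no match. The window of Cxcl12 has none of these letters either, which says nothing about NF-κB at that gene.

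Ccl2, which attracts monocytes, measured 87.3 FPKM in FLAG, 451 FPKM in FLAG-CACUL1, 51.1 FPKM in sh-Luc and 2.00 FPKM in sh-CACUL1. The overexpressing line was the highest and the knockdown line by far the lowest, with both controls in between. Ccl2 was 5.17 times as high in FLAG-CACUL1 as in FLAG (95% counting interval 4.84 to 5.53). In sh-Luc it was 25.6 times as high as in sh-CACUL1 (16.9 to 38.9), where it rested on an estimated 25 fragments. These intervals use fragment numbers estimated from the deposited values, cover counting error only and say nothing of the spread between cultures. On the log2 scale of FPKM + 1, on which all changes here are given and which understates changes of low genes, Ccl2 rose by 2.36 in FLAG-CACUL1 and fell by 4.12 in sh-CACUL1, the 12th lowest change of all 13085 genes in the knockdown comparison.

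Ccl7, a second monocyte attractant, lies 8259 bases downstream of Ccl2 on the plus strand of chromosome 11 (Ccl2 at chr11:82035571-82037453, Ccl7 at chr11:82045712-82047525, GRCm38). It measured 91.5 FPKM in FLAG, 298 FPKM in FLAG-CACUL1, 62.4 FPKM in sh-Luc and 5.14 FPKM in sh-CACUL1. Its order over the lines was that of Ccl2, and its level in the controls was close to that of Ccl2. It rose by 1.69 in FLAG-CACUL1 and fell by 3.37 in sh-CACUL1, and the linear ratio of sh-Luc to sh-CACUL1 was 12.1 (95% counting interval 9.43 to 16.0).

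Ccl11, an eosinophil attractant next in the same cluster and 20370 bases from Ccl2, was measured at 0.0742 FPKM in FLAG, 15.8 FPKM in FLAG-CACUL1, 0.353 FPKM in sh-Luc and 0.141 FPKM in sh-CACUL1. It shared the rise in the overexpressing line with a log2 change of 3.97, while 3 lines held it under 1 FPKM. Its change in the knockdown was -0.25 from a level already near none.

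Cxcl1 attracts neutrophils through the receptor CXCR2 and lies on the plus strand of chromosome 5 (chr5:90891241-90893115). It measured 176 FPKM in FLAG, 317 FPKM in FLAG-CACUL1, 12.4 FPKM in sh-Luc and 1.71 FPKM in sh-CACUL1. Both FLAG lines stood far above both hairpin lines, so that most of its range lay between vectors. Cxcl1 had a log2 change of 0.85 in FLAG-CACUL1, under 2-fold, and fell by 2.31 in sh-CACUL1. The ratio of FLAG to sh-Luc, 14.2 (95% counting interval 12.5 to 16.1), was larger than the ratio of 1.80 (1.72 to 1.90) between FLAG-CACUL1 and FLAG.

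Cxcl5 lies 129617 bases from Cxcl1 (chr5:90759360-90761624, plus strand) and attracts neutrophils through the same receptor. Its levels were 10.3 FPKM in FLAG, 256 FPKM in FLAG-CACUL1, 9.82 FPKM in sh-Luc and 0.300 FPKM in sh-CACUL1. Unlike Cxcl1 it was nearly equal in the controls, with a log2 change of 0.07 between FLAG and sh-Luc. The rise in FLAG-CACUL1, a log2 change of 4.50, was the 2nd highest of all 13085 genes, and the linear ratio was 24.7 (95% counting interval 21.7 to 28.2). The level in sh-CACUL1 rested on an estimated 7 fragments, and the ratio of sh-Luc to sh-CACUL1 was 32.8 with a wide counting interval of 16.0 to 83.6. Its log2 change of -3.06 there depended on the pseudocount and was -5.04 without one.

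Between the Cxcl5 and Cxcl1 genes lies Cxcl15, which was at most 0.0428 FPKM in every line. Ereg, a growth factor gene 181507 bases beyond Cxcl1, measured 4.22 FPKM in FLAG, 3.51 FPKM in FLAG-CACUL1, 3.97 FPKM in sh-Luc and 0.0160 FPKM in sh-CACUL1. It was thus low in the knockdown line alone, while Mthfd2l, between Cxcl1 and Ereg, had a log2 change of 0.07 in that line.

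Cxcl12, a chemokine that stromal cells make constantly and that binds CXCR4 and ACKR3, was the most abundant of the 10 genes (chr6:117168535-117181367, plus strand). It measured 479.5 FPKM in FLAG, 858 FPKM in FLAG-CACUL1, 537 FPKM in sh-Luc and 243 FPKM in sh-CACUL1. FLAG-CACUL1 was again the highest and sh-CACUL1 the lowest line, but its whole range was 3.54-fold, against 853-fold for Cxcl5 and 226-fold for Ccl2. The log2 change was 0.84 in FLAG-CACUL1. In sh-CACUL1 it was -1.14, just past 2-fold, and -0.67 after median-of-ratios scaling, which takes it under 2-fold.

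Csf1, the growth factor on which macrophages depend (chr3:107741048-107760469, minus strand), measured 99.9 FPKM in FLAG, 155 FPKM in FLAG-CACUL1, 71.9 FPKM in sh-Luc and 6.54 FPKM in sh-CACUL1. The knockdown line stood apart, while the other 3 lines lay between 71.9 and 155 FPKM. Csf1 fell by 3.27 on the log2 scale in sh-CACUL1, an 11.0-fold difference in FPKM and the 51st lowest change of all genes. Its change in FLAG-CACUL1 was 0.63.

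**Figure D1:**
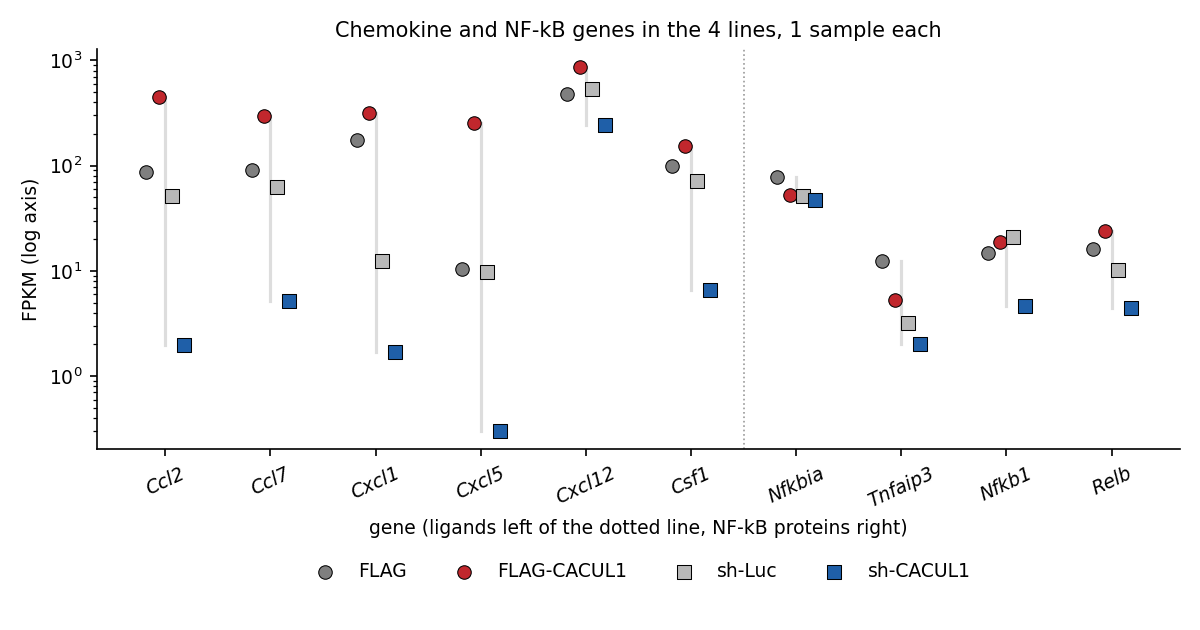
FPKM of the 10 genes (log axis) in the 4 lines, 1 point per sample, with circles for the FLAG vector lines, squares for the hairpin lines and a grey bar for the range of each gene. The ligands on the left spread widely, from 0.300 FPKM to 256 FPKM for Cxcl5, whereas Nfkbia stays between 47.4 and 78.3 FPKM.

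The 4 NF-κB genes varied less than most of the ligands. Nfkbia, which encodes the inhibitor IκBα (chr12:55489410-55492647, minus strand), measured 78.3 FPKM in FLAG, 52.5 FPKM in FLAG-CACUL1, 51.1 FPKM in sh-Luc and 47.4 FPKM in sh-CACUL1. FLAG was the highest and the other 3 lines lay close together. Relative to its own control, the log2 change was -0.57 for FLAG-CACUL1 and -0.11 for sh-CACUL1, and the ratio of sh-Luc to sh-CACUL1 was 1.08 (95% counting interval 1.00 to 1.16). The sign of the change in sh-CACUL1 rested on the scaling, since it was 0.20 after quantile normalization and 0.36 after median-of-ratios scaling. Nfkbia thus differed by under 2-fold in both comparisons, where Ccl2 differed 5.17-fold and 25.6-fold.

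Tnfaip3, a ubiquitin-editing enzyme that shuts off NF-κB signalling (chr10:19000910-19015657, minus strand), measured 12.5 FPKM in FLAG, 5.30 FPKM in FLAG-CACUL1, 3.19 FPKM in sh-Luc and 2.04 FPKM in sh-CACUL1. As deposited, both inhibitors followed the same order over the lines, with FLAG first. Tnfaip3 fell by 1.09 in FLAG-CACUL1 relative to FLAG, against the direction of all 6 ligands. That direction rested on the control, since FLAG-CACUL1 was higher than sh-Luc by a log2 change of 0.59. In sh-CACUL1 its change was -0.47.

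Nfkb1, the precursor of a DNA-binding NF-κB subunit (chr3:135584655-135691547, minus strand), measured 14.7 FPKM in FLAG, 18.8 FPKM in FLAG-CACUL1, 20.9 FPKM in sh-Luc and 4.61 FPKM in sh-CACUL1. As for Csf1, sh-CACUL1 stood apart below 3 similar lines. Nfkb1 fell by 1.96 in sh-CACUL1, with a ratio of sh-Luc to sh-CACUL1 of 4.53, and had a change of 0.34 in FLAG-CACUL1.

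Relb, the subunit of the noncanonical pathway (chr7:19606217-19629438, minus strand), measured 16.1 FPKM in FLAG, 24.2 FPKM in FLAG-CACUL1, 10.2 FPKM in sh-Luc and 4.46 FPKM in sh-CACUL1. It had the same order as Ccl2 over a much smaller range of 5.42-fold. The log2 change was 0.56 with overexpression and -1.04 with knockdown, and the latter was -0.58 after quantile normalization.

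In FLAG-CACUL1 relative to FLAG, 3 of the 10 genes rose at least 2-fold (Ccl2, Ccl7 and Cxcl5) and 1 fell (Tnfaip3). Of all 13085 genes 14.7% changed by that much, 7.51% upward and 7.22% downward. The median change was 0.73 over the 10 genes and 0.09 over all genes. Split by role, the median was 1.27 for the 6 ligands, all of which were higher than in FLAG, and -0.12 for the 4 NF-κB genes.

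In sh-CACUL1 relative to sh-Luc none of the 10 rose and 8 fell at least 2-fold, with Nfkbia and Tnfaip3 as the exceptions. Over all genes 21.3% changed, 4.94% upward and 16.4% downward. The balance over all genes turned with the scaling, with 647 higher and 2141 lower as deposited and 1231 higher and 975 lower after median-of-ratios scaling. The median was -2.14 over the 10 genes and -0.30 over all genes, and relative to the latter the 10 genes had a median of -1.83. All 6 ligands fell, by 1.14 to 4.12 with a median of -3.17, while 2 of the 4 NF-κB genes did (median -0.75). Counted after scaling by median of ratios, 6 of the 10 genes fell, as Cxcl12 and Relb came under 2-fold.

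**Figure D2:**
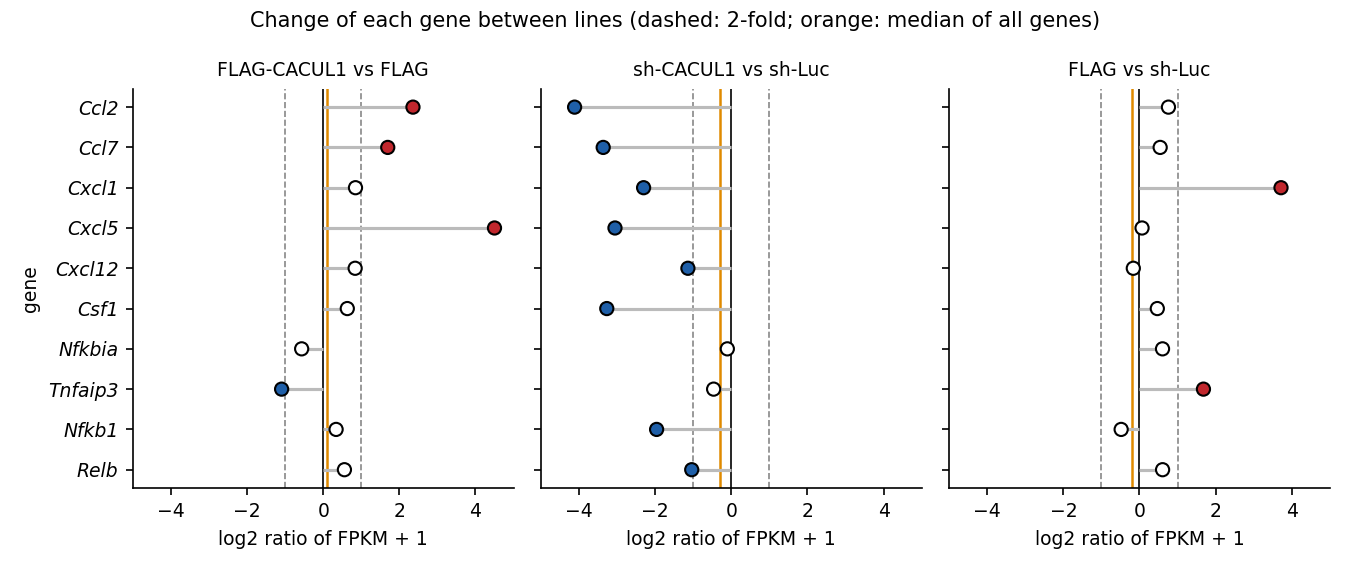
Change of each of the 10 genes as the log2 ratio of FPKM + 1 in 3 comparisons, with filled points at or past 2-fold (red higher, blue lower), dashed lines at 2-fold and an orange line at the median of all genes. Filled points number 3 red and 1 blue in FLAG-CACUL1, 8 blue in sh-CACUL1 and 2 red between the controls.

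The controls differed as well. In FLAG relative to sh-Luc 2 of the 10 genes were at least 2-fold higher, Cxcl1 with a log2 change of 3.72 and Tnfaip3 with 1.68, and none was lower. Among all genes 21.0% differed by that much between these lines, 8.58% upward and 12.4% downward, and this balance turned from 1123 higher and 1627 lower to 1565 higher and 937 lower after median-of-ratios scaling. Ccl2 at 0.76, Nfkbia and Relb at 0.61 each and Nfkb1 at -0.48 lay under 2-fold. This comparison shares its samples with both others.

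Each CACUL1 line was also set against the control of the other vector, which shares a sample with the comparisons above. FLAG-CACUL1 relative to sh-Luc had 6 of the 10 genes at least 2-fold higher, with log2 changes of 3.12 for Ccl2, 2.24 for Ccl7, 4.57 for Cxcl1, 4.57 for Cxcl5, 1.10 for Csf1 and 1.16 for Relb. None was lower by that much. Of all 13085 genes 9.90% differed by that much there, 659 higher and 637 lower. In sh-CACUL1 relative to FLAG 8 genes were at least 2-fold lower, from -1.48 for Nfkb1 to -6.03 for Cxcl1. Cxcl12 at -0.98 and Nfkbia at -0.71 were the other 2, so Tnfaip3, at -2.15, was counted as lower against this control and Cxcl12 was not. Over all genes 22.9% passed 2-fold in sh-CACUL1 relative to FLAG, 975 higher and 2016 lower.

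The comparisons of FLAG-CACUL1 with FLAG and of sh-CACUL1 with sh-Luc share no sample. Ccl2, Ccl7 and Cxcl5 rose at least 2-fold in the former and fell at least 2-fold in the latter, 3 of the 10 genes, as did 3.02% of all genes. None of the 10 fell in FLAG-CACUL1 and rose in sh-CACUL1, which 1.69% of all genes did. The 6 ligands and Relb were highest in FLAG-CACUL1 and lowest in sh-CACUL1, that is 7 of the 10, against 13.0% of all genes. As deposited, all 10 were lowest in sh-CACUL1, as were 41.6% of all genes, but Nfkbia was not lowest there after quantile normalization, after median-of-ratios scaling or with equal FPKM totals. Under each of these scalings the other 9 were still lowest in sh-CACUL1, against 28.0% to 28.7% of all genes. Because the 10 genes were chosen with earlier results of these data known, the shares describe them and test nothing.

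**Figure D3:**
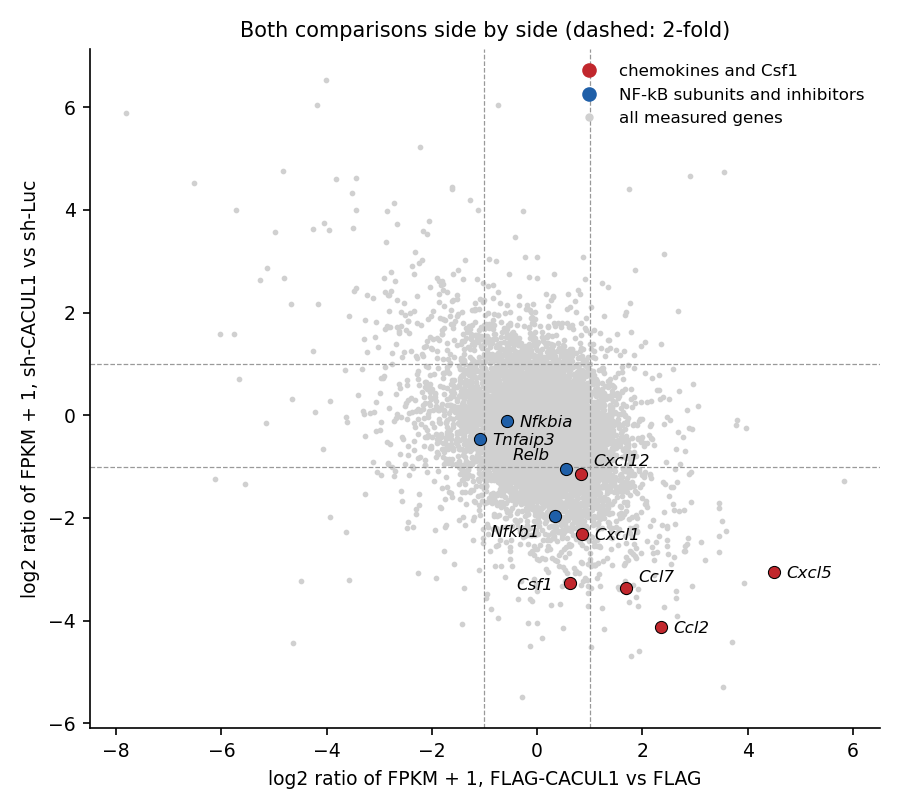
Log2 ratio of FPKM + 1 in FLAG-CACUL1 relative to FLAG (x axis) against that in sh-CACUL1 relative to sh-Luc (y axis) for all 13085 genes in grey, with the 6 ligands in red and the 4 NF-κB genes in blue and dashed lines at 2-fold. Ccl2, Ccl7 and Cxcl5 lie past 2-fold in the lower right, and Tnfaip3 and Nfkbia lie left of 0.

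Genes whose pattern over the 4 samples was most like that of a given gene were sought, out of 9563 that reached 1 FPKM in every sample, by the distance between their centred log2 values. For Ccl2 the nearest were Isg15 (distance 0.89), the interferon-induced ubiquitin-like protein, Mmp3 (1.11), a matrix metalloproteinase, and Ccl7 (1.17). Isg15 measured 79.8 FPKM in FLAG, 189 FPKM in FLAG-CACUL1, 34.4 FPKM in sh-Luc and 1.62 FPKM in sh-CACUL1. Cxcl5 was nearest to Dcn (1.38), the matrix proteoglycan decorin, then to Ccl2 (1.70) and Mmp3 (1.90). Nfkbia lay at a distance of 5.05 from Ccl2, rank 4650 among the 9563 genes by nearness. It was nearest to Dpagt1, Leng1 and Mpnd at distances of 0.07 to 0.08, none of which is on the lists of NF-κB or chemokine genes used here. The distance was not scaled by the spread of a gene, so genes that vary little lie close together.

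Other genes of the pathway were described by lists. Of 9 measured receptors that feed into NF-κB, 3 rose in FLAG-CACUL1 (Il1rap, Tlr2 and Tlr3) and 2 fell in sh-CACUL1 (Il1rap and Tlr2). Over all genes 7.51% rose in FLAG-CACUL1 and 16.4% fell in sh-CACUL1. Tlr2, the receptor of bacterial lipoproteins, measured 24.4 FPKM in FLAG, 81.2 FPKM in FLAG-CACUL1, 11.9 FPKM in sh-Luc and 1.30 FPKM in sh-CACUL1, which is the order of Ccl2. Il1rap, the accessory chain of the interleukin-1 receptor, had log2 changes of 1.13 and -2.55. The remaining receptors, among them Tnfrsf1a with changes of -0.36 and 0.31, lay under 2-fold in both comparisons on the scale of FPKM + 1. In sh-CACUL1 Tlr4 (-0.99) and Tnfrsf1b (-0.92) lay close to it. In FPKM itself both differed by more than 2-fold there, with 5.06 and 2.06 FPKM in sh-Luc and sh-CACUL1 for Tlr4 and 7.57 and 3.52 FPKM for Tnfrsf1b. The rises of Il1rap and Tlr3 depended on the control, and that of Tlr2 did not. Relative to sh-Luc, FLAG-CACUL1 had a change of -0.11 for Il1rap and 0.25 for Tlr3, against 2.67 for Tlr2.

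Of 22 measured IKK and adaptor genes, 2 rose (Ikbke and Tbk1, related kinases outside the core IKK complex) and 1 fell (Tab3) in FLAG-CACUL1, and 1 fell in sh-CACUL1 (Tab2, an adaptor of the kinase TAK1). Ikbke measured 4.82 FPKM in FLAG, 14.9 FPKM in FLAG-CACUL1, 12.2 FPKM in sh-Luc and 7.45 FPKM in sh-CACUL1, so that FLAG was its lowest line. Against sh-Luc, FLAG-CACUL1 had a change of 0.27 for Ikbke and 0.09 for Tbk1. The median of this list was 0.27 with overexpression and -0.45 with knockdown. In sh-CACUL1 21 of these 22 genes lay under 2-fold, in a comparison in which 21.3% of all genes passed it. That count rested in part on the pseudocount. Tbk1 (19.7 FPKM in sh-Luc and 9.39 FPKM in sh-CACUL1), Traf3 (3.33 and 1.23 FPKM) and Traf6 (4.31 and 1.97 FPKM) differed by more than 2-fold in FPKM itself. With no pseudocount 36.7% of all genes passed 2-fold.

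Among 7 further NF-κB subunits and IκB proteins, Nfkbie rose in FLAG-CACUL1 (1.31) and fell in sh-CACUL1 (-1.12), at levels of 0.650 to 3.46 FPKM. Its change in FLAG-CACUL1 relative to sh-Luc was 0.31. Nfkb2, the partner of Relb, measured 38.7 FPKM in FLAG, 30.0 FPKM in FLAG-CACUL1, 27.3 FPKM in sh-Luc and 10.4 FPKM in sh-CACUL1 and fell by 1.31 in the knockdown. The other 5 did not reach 2-fold in either comparison, including Rela, the main activating subunit, with changes of -0.01 and -0.94. The list median was -0.01 with overexpression and -0.76 with knockdown, against 0.09 and -0.30 over all genes. The knockdown median was the value of Rel, a gene under 1 FPKM in every line.

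Of 10 negative regulators measured beside Nfkbia and Tnfaip3, Tnip1 fell in FLAG-CACUL1 and Trim30a fell in sh-CACUL1 (-2.06). Tnip1, the binding partner of Tnfaip3, measured 67.7 FPKM in FLAG, 30.1 FPKM in FLAG-CACUL1, 22.1 FPKM in sh-Luc and 19.8 FPKM in sh-CACUL1. It had the order of Nfkbia and Tnfaip3 and a log2 change of -1.14 in FLAG-CACUL1 relative to FLAG. Relative to sh-Luc the change of Tnip1 in FLAG-CACUL1 was 0.43.

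Of 18 other measured NF-κB target genes, 5 rose and 4 fell in FLAG-CACUL1, and 1 rose and 6 fell in sh-CACUL1. Over all genes 7.51% rose and 7.22% fell in the former comparison, and 4.94% rose and 16.4% fell in the latter. Mmp3 measured 104 FPKM in FLAG, 487 FPKM in FLAG-CACUL1, 22.1 FPKM in sh-Luc and 1.68 FPKM in sh-CACUL1 and so kept the order of Ccl2. Mmp9 and Tnfaip6 were highest in sh-Luc, at 23.1 and 18.0 FPKM, and fell by 3.94 and 2.84 in sh-CACUL1. Lcn2 rose by a log2 change of 2.69 in sh-CACUL1, to 42.3 FPKM from 5.71 FPKM, while FLAG held it at 1581 FPKM and FLAG-CACUL1 at 1424 FPKM. The targets therefore moved in both directions in FLAG-CACUL1, while in sh-CACUL1 Lcn2 alone rose at least 2-fold.

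A list of 33 genes held other chemokines and Il34, a cytokine that shares the receptor of Csf1, of which 13 had a row and the rest were not analysed here. In each comparison 3 of the 13 rose and 2 fell. Over all genes 7.51% rose and 7.22% fell in FLAG-CACUL1, and 4.94% rose and 16.4% fell in sh-CACUL1. No more than 9 of the 13 reached 1 FPKM in any sample. The medians were 0.02 for overexpression and -0.09 for knockdown. These were the values of Ccl28 and Cxcl9, both under 1 FPKM in every line, so they say little about the expressed genes. Cx3cl1, the membrane-bound chemokine fractalkine, measured 35.6 FPKM in FLAG, 1.37 FPKM in FLAG-CACUL1, 2.10 FPKM in sh-Luc and 2.74 FPKM in sh-CACUL1, high in FLAG alone. Ccl5 was also highest in FLAG, at 19.1 FPKM, and fell in both comparisons (-1.89 and -1.08), but in FLAG-CACUL1 relative to sh-Luc its change was 0.92. Ccl6 rose in both, with log2 changes of 1.87 and 2.83.

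Of 11 receptors that bind the 6 ligands, 3 had a row. Ackr3, the scavenging receptor of Cxcl12, measured 39.7 FPKM in FLAG, 7.46 FPKM in FLAG-CACUL1, 18.6 FPKM in sh-Luc and 1.32 FPKM in sh-CACUL1. It fell in both comparisons, with log2 changes of -2.27 and -3.08, whereas Cxcl12 had changes of 0.84 and -1.14. Csf1r, the receptor of Csf1 on macrophages, was at most 0.607 FPKM, and Cxcr2, which binds Cxcl1 and Cxcl5, was at most 0.332 FPKM.

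**Figure D4:**
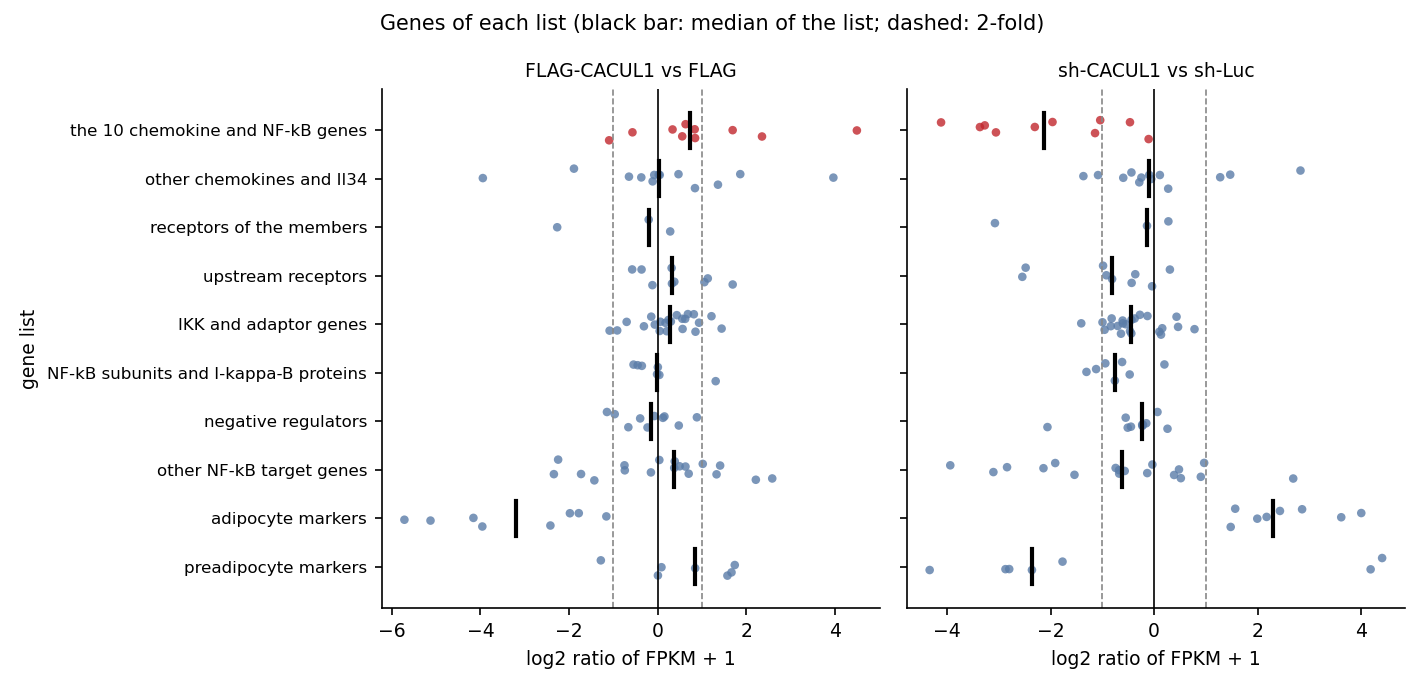
Log2 ratio of FPKM + 1 for every measured gene of each list in FLAG-CACUL1 relative to FLAG and in sh-CACUL1 relative to sh-Luc, with a black bar at the median of the list and dashed lines at 2-fold. The 10 genes (red) have medians of 0.73 and -2.14, and the IKK and adaptor genes have medians of 0.27 and -0.45.

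Markers of cell state also differed between the lines. All 8 adipocyte markers fell in FLAG-CACUL1 and rose in sh-CACUL1, and their summed level was 7451 FPKM in FLAG, 913 FPKM in FLAG-CACUL1, 1729 FPKM in sh-Luc and 16683 FPKM in sh-CACUL1. Of 7 measured preadipocyte and stromal markers 3 rose and 1 fell in FLAG-CACUL1, and 2 rose and 5 fell in sh-CACUL1, with summed levels of 5685, 7632, 3865 and 644 FPKM in the same order. The latter sum came mostly from Col1a1, Col3a1 and Fn1. Dlk1, a preadipocyte marker, had log2 changes of -1.28 and 4.19 in these comparisons, and Thy1, a stromal marker, had 1.74 and 4.41. The adipocyte sum was lowest in FLAG-CACUL1, where the ligands were highest, and highest in sh-CACUL1, where they were lowest. Fabp4 made up 12543 FPKM of that sum in sh-CACUL1. The single markers did not all have this order. Pparg, Cebpa, Plin1 and Lpl were highest in FLAG, and Cebpa and Lpl were lowest in sh-Luc. Between the controls the adipocyte markers and the ligands did not move in opposite directions: in FLAG relative to sh-Luc 7 of the 8 adipocyte markers were at least 2-fold higher (median 2.23), while the median of the 6 ligands was 0.51. In bulk RNA, fewer cells of a type and less RNA per cell cannot be told apart, and the part of cell state in the ligand levels was not tested.

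Of 10 macrophage markers 5 had a row, and Adgre1, Itgam, Ptprc, Fcgr1 and Tyrobp were not analysed here. Their summed level was 40.6 FPKM in FLAG, 111 FPKM in FLAG-CACUL1, 9.36 FPKM in sh-Luc and 6.95 FPKM in sh-CACUL1, nearly all of it from Lyz2, Cd14 and Cd68. These did not move together, since Lyz2 (2.89) and Cd14 (1.43) rose and Cd68 fell (-2.82) in FLAG-CACUL1, and of the 5 markers only Lyz2 passed 2-fold in sh-CACUL1 (-1.15). Csf1r and Aif1 stayed under 1 FPKM in every line, and Pecam1, the single endothelial marker with a row, was at most 0.301 FPKM. Of 6 housekeeping genes 1 fell in FLAG-CACUL1 (Gapdh, -2.31), and 1 rose and 1 fell in sh-CACUL1 (Hprt, 1.27, and Actb, -1.34). The part of these genes in the result was not tested.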

How the data were processed

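A sequencing company made and read 1 mRNA library from each of the 4 lines, and genes differing 2-fold or more were called changed in the study. The authors deposited FPKM values in 13110 rows a sample, each named by RefSeq transcripts, and their processing notes name build mm10. The aligner, the counting program and any filter are not given in the sources used here. Rows were joined to symbols through GENCODE M21 (196 rows had no symbol and 8 had more than 1) and summed per symbol to 13085 genes. Changes are log2 ratios of FPKM + 1, and 2-fold or more counted as changed. Fragments were estimated from the steps of low FPKM in transcripts of at least 3000 bases and from transcript length, and 95% intervals are exact Poisson or binomial ones on these numbers. No more than 1.81% of the 31-base stretches of any of the 10 genes occurred in another gene.

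The 10 genes and all lists were chosen with earlier results of these data known. From each list at most 4 genes past 2-fold were named, the largest changes first and with at least 1 FPKM in 1 sample. For likeness, 3 genes each were named for Ccl2, Cxcl5 and Nfkbia. All measured receptors of the ligands and the marker genes were named too. Genes next to Ccl2 and Cxcl1, and Rela and Tnfrsf1a, were named outside that rule. The scripts were tested on simulated data. Python 3.11.15, numpy 2.4.6, pandas 2.3.3, scipy 1.17.1 and matplotlib 3.10.9 were used. Alternatives were 2 pseudocounts, 2 filters, 3 scalings, another row per symbol, a 3-fold cut-off, the other control and, added after seeing the data, centring on the median of all genes and a count of the order of the lines under the 3 scalings.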

Additional observations from a re-analysis of the deposited data

How the results depend on the processing

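No paired analysis was possible because each line had 1 sample. The count of the 10 genes changed at least 2-fold was 4 in FLAG-CACUL1 and 3 to 6 under the alternatives, 8 in sh-CACUL1 and 6 to 8, and 2 between the controls and 2 to 3. Of 230 single values recomputed, 207 kept their side of 2-fold and changed by less than 1.5-fold. Of these 207, 30 came from taking another row per symbol, which could change nothing because each gene had 1 row. Under the other control only 8 values were kept in this way, while 11 moved and 1 reversed. Among the 230 values the sign changed for 10, of which 9 were under 2-fold as reported. The other one was Tnfaip3 in FLAG-CACUL1, -1.09 against FLAG and 0.59 against sh-Luc. Under the other control Nfkbia (-0.57) was 0.04 and Nfkb1 (0.34) was -0.14 in FLAG-CACUL1. Nfkbia in sh-CACUL1 (-0.11) was 0.05 to 0.36 under all 3 scalings and the centring, and Cxcl5 and Cxcl12 changed sign near 0 between the controls. In sh-CACUL1, Relb (-1.04) was -0.58 after quantile normalization, -0.63 after median-of-ratios scaling, -0.98 with equal FPKM totals and -0.74 after centring on the median of all genes, which was chosen after seeing the data. Cxcl12 (-1.14) was -0.67, -0.98 and -0.84 under the last 3 of these. Cxcl5 there was -4.63 with a pseudocount of 0.1 FPKM. Ccl2 between the controls was 1.05 after median-of-ratios scaling. Over all genes, the numbers higher and lower in sh-CACUL1 were 647 and 2141 as deposited, 1178 and 1084 after quantile normalization and 1231 and 975 after median-of-ratios scaling. They were 1362 and 3437 with no pseudocount and 252 and 684 at 3-fold. In FLAG-CACUL1 983 and 945 became 2192 and 1583, and 283 and 380, respectively, and 755 and 1169 after median-of-ratios scaling. Between the controls 1123 and 1627 became 1565 and 937. Which scaling is right was not tested.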

Other observations

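Other NF-κB target genes differed between the controls as well. In FLAG relative to sh-Luc 9 of 18 measured targets were at least 2-fold higher and 2 were lower, against 8.58% and 12.4% of all genes. The targets had a median log2 change of 0.97, against -0.18 over all genes. The genes named next were chosen after their values were seen. Ier3, an early response gene, measured 256 FPKM in FLAG, 53.2 FPKM in FLAG-CACUL1, 13.5 FPKM in sh-Luc and 4.0 FPKM in sh-CACUL1, and Ptgs2, the inducible cyclooxygenase, measured 33.5, 5.80, 0.985 and 0.240 FPKM in the same order of lines. Both fell in FLAG-CACUL1 relative to FLAG, as Tnfaip3 did, and had its order over the lines. That direction rested on the control, since FLAG-CACUL1 relative to sh-Luc had log2 changes of 1.90 for Ier3 and 1.78 for Ptgs2. Saa3, an acute phase gene, measured 1135 FPKM in FLAG, 6829 FPKM in FLAG-CACUL1, 1.32 FPKM in sh-Luc and 3.33 FPKM in sh-CACUL1, and was thus abundant in the FLAG lines and low in the hairpin lines. Bcl3, a coactivator of the IκB family, had 22.7 and 23.4 FPKM in the FLAG lines and 3.11 and 1.68 FPKM in the hairpin lines.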
